A study of Mus musculus with 10 samples.

Results

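The genes described here code for the ligands and receptors of axon guidance: semaphorins with their plexin and neuropilin receptors, ephrins with their Eph receptors, Slits with Robo receptors, and netrins with the receptors Dcc and Unc5. Members were all genes of the deposited table whose symbol belongs to one of these families, 69 of 21936 genes. They form 13 groups of ligands or receptors, and 67 had enough reads to be tested. Efna4 and Ntn5, with 0 to 13 reads per sample, did not.

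RNA of 10 mouse spinal cord samples labelled day 14 was sequenced in 2 groups of 5. All come from wild-type mice with experimental autoimmune encephalomyelitis (EAE), a model of multiple sclerosis that rests on an immune attack on the myelin of brain and cord. The group called Nar received naringenin, a citrus flavonoid, while the group called EAE is the comparison. Groups follow the sample titles. The treatment label reads naringenin for every sample, so that what the EAE group was given is not known. The sources used here give no strain, sex, age, immunisation scheme or dose. Healthy cord was not analysed here. Whether each sample is another animal is not stated, and the p-values then measure only the spread among these samples, which could be technical. The comparison of Nar with EAE asks how naringenin treatment changes expression of these genes in the inflamed cord.

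Axon guidance molecules steer growth cones by attraction and repulsion. Semaphorins act through plexins, with neuropilins as co-receptors for the secreted class 3. Ephrins are bound to the membrane and signal to Eph receptor tyrosine kinases on the neighbouring cell. Slits repel axons through Robo receptors, and netrins attract through Dcc and repel through Unc5 receptors. In the adult cord the same molecules are made by neurons, glia, vessels and meninges, and several act on oligodendrocyte precursors, immune cells and regrowing axons.

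Sequenced reads counted to genes were 14.5 to 15.1 M per sample in Nar (14.8 ± 0.258 M, SD, n = 5) and 16.7 to 19.0 M in EAE (17.8 ± 0.882 M), a difference with p = 0.0079 in a two-sided exact permutation test, where no smaller value is possible with 5 per group (0.032 adjusted over 4 comparisons). Mitochondrial reads were 7.04 ± 0.401% of counts in Nar and 5.69 ± 0.893% in EAE (exact permutation p = 0.032, adjusted 0.064). They ran from 6.69 to 7.51% in Nar, and of the EAE samples only EAE 3, at 7.01%, lay in that range. This share goes largely with group, so fits below with it as a covariate can hardly tell it from treatment. Depth and treatment cannot be told apart here. The members together took 0.276 to 0.301% of counts in Nar and 0.273 to 0.319% in EAE (exact permutation p = 0.48, adjusted 0.48). Neuron, astrocyte, oligodendrocyte and spinal cord Hox markers were read in all samples, as the label spinal cord requires. Reading them does not show that all samples come from the same level of the cord, and the Hox genes differed among samples, as given with the cell markers below. Sample Nar 4 stood apart in the summed level of 8 infiltrating macrophage markers. Most of this sum was Lyz2, with a mean of 137 FPKM (fragments per kb of gene per M reads) over all samples. The sum was 94.4 FPKM in Nar 4, while the remaining Nar samples had 15.7 to 26.3 and EAE 151 to 404. For this reason results that rest on Nar 4 are given with and without it.

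Between the groups 5 of the 67 tested genes changed (7.46%), beside 3.93% of all 14595 genes tested. In Nar 3 receptors rose: Epha10, an Eph receptor without kinase activity, by 1.37-fold, Ephb1, a receptor of B ephrins, by 1.22-fold, and Plxnb3, a plexin found mainly in oligodendrocytes, by 1.26-fold. The semaphorin co-receptor Nrp2 fell, being 1.45-fold higher in EAE, as did the ligand Slit3, 1.34-fold higher in EAE. The background was 1.58% of genes higher and 2.36% lower, against 3 and 2 members. The 67 members had a median log2 fold change of -0.05, with 30 above and 37 below 0, and the median of all tested genes was 0.02. Of the 33 ligands tested 1 changed and of the 34 receptors 4, a difference that was not tested. These calls come from edgeR's quasi-likelihood test at an adjusted p of 0.05 (Benjamini-Hochberg over all genes). The count of members called was 2 without Nar 1, Nar 3 or Nar 5 and 3 without EAE 1 or EAE 5. It was 10 without Nar 2 (4.68% of all genes called) and 11 without Nar 4 (10.1% of all genes). With single samples left out the count over all genes moved as well, from 161 to 1486.

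**Figure D1:**
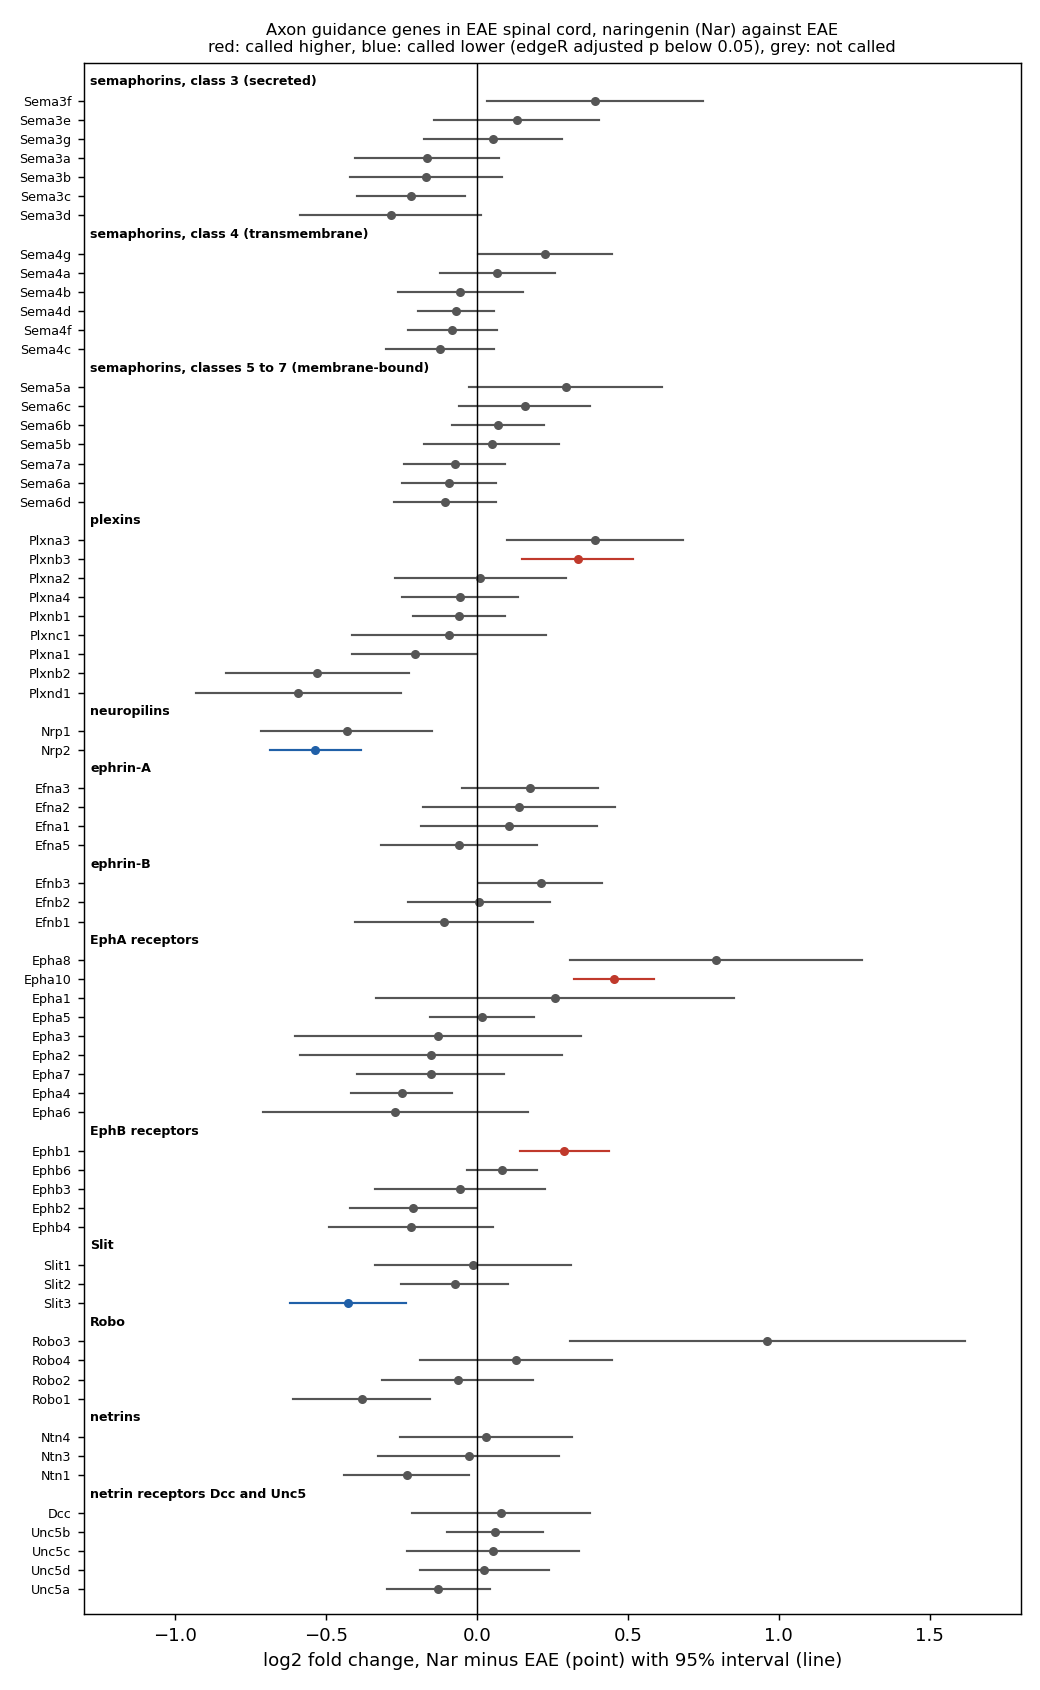
Log2 fold change, Nar minus EAE, of the 67 tested axon guidance genes (x axis), listed by family on the y axis, each with its 95% interval as a line. Red genes were called higher in Nar (Epha10, Ephb1, Plxnb3), blue genes lower (Nrp2, Slit3) and grey genes were not called. Most intervals of uncalled genes are short and cross 0, while Robo3 and Epha8 have long ones.

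For the 62 genes not called, the 95% interval of the log2 fold change lay wholly within ±0.5, that is a change of less than 1.41-fold, in 48. The other 14 intervals reach beyond this range, so that larger differences remain possible there. The called changes of Ephb1, Plxnb3, Slit3 and Epha10 are themselves below 1.41-fold. Lying within the range therefore does not by itself exclude a change of that size. The intervals are not adjusted for the number of genes. Within the range lay 29 of 32 uncalled ligands and 19 of 30 uncalled receptors.

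The called genes are shown first by sample. Values are counts per M reads scaled by TMM factors (CPM), which compare samples within a gene. Nrp2 had 40.0, 42.1, 42.5, 39.9 and 35.6 CPM in Nar 1 to 5 and 60.3, 58.9, 51.4, 61.7 and 57.5 CPM in EAE 1 to 5. Every Nar sample lay below every EAE sample, and Nar 4 lay with its group. Epha10 had 81.7, 68.3, 72.3, 75.3 and 77.8 CPM in Nar and 59.4, 52.9, 54.1, 53.7 and 54.05 CPM in EAE. All Nar samples were above all EAE samples, with Nar 4 in the middle of its group. Groups that do not overlap were found in 4 of the 67 members (5.97%), Nrp2, Slit3, Epha10 and Ephb1, beside 5.79% of all genes, so this count is near the background. Of these genes 2 were above EAE (background 2.67%) and 2 below (3.12%).

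**Figure D2:**
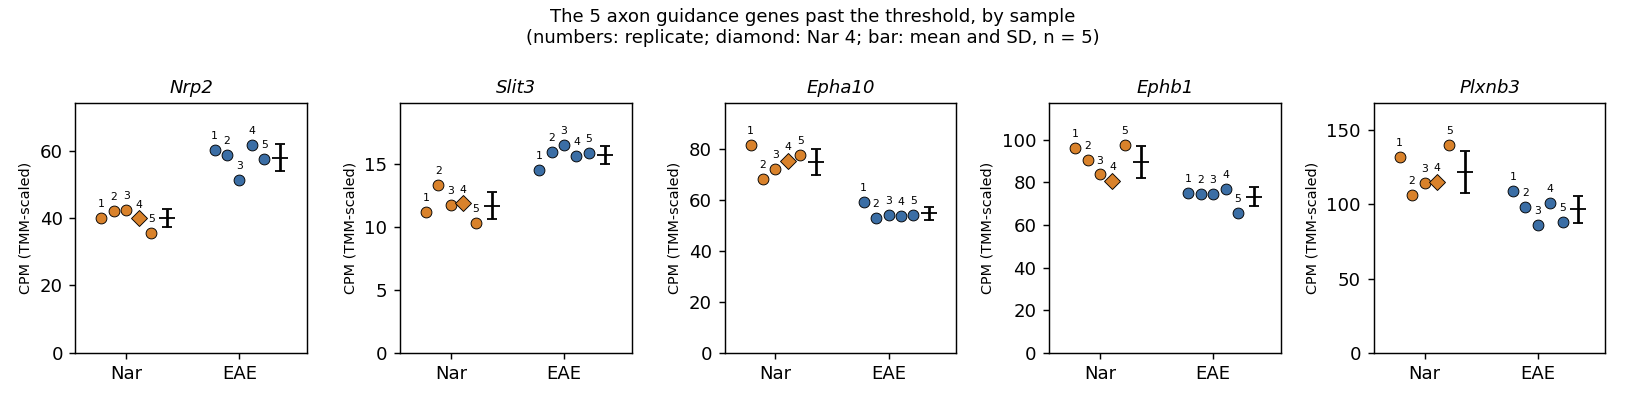
CPM of the 5 called genes (y axis, from 0) in each Nar and EAE sample, with replicate numbers, the mean and the SD (n = 5 per group). Nar samples lie below EAE in Nrp2 and Slit3 and above EAE in Epha10 and Ephb1, while the groups overlap in Plxnb3.

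To show the sequence just upstream of the called genes' start sites, windows are given for the 3 whose window holds no annotated exon. Each is read 5′ to 3′ on the gene's strand from 250 to 51 bases before the RefSeq start (GRCm38.p6). Nrp2 is at chr1:62703067-62703266 on the plus strand, Ephb1 at chr9:102354744-102354943 on the minus strand and Plxnb3 at chrX:73756853-73757052 on the plus strand. Capitals mark matches on either strand to 6 motifs that were searched: the GC box GGGCGG, the CCAAT box CCAAT, the TATA box TATAAA, the AP-1 element TGANTCA, the E-box CACGTG and the SOX core ACAAAG.
Nrp2: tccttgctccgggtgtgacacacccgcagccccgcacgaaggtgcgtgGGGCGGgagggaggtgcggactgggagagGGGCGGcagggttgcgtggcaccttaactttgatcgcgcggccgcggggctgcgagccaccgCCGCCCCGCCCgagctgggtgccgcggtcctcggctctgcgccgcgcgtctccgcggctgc
Ephb1: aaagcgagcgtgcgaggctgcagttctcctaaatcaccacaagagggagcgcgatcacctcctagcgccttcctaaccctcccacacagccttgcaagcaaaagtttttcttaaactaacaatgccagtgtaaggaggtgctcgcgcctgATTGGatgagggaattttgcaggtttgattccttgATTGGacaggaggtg
Plxnb3: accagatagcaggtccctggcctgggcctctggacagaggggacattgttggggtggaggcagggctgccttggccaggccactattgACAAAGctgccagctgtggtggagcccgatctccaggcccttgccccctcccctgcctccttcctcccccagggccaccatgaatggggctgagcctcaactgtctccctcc
The Nrp2 window held 4 GC boxes, of which 2 share a base, and the Ephb1 window 2 CCAAT boxes. The Plxnb3 window held 1 SOX core and none of the other motifs. Among 32514 distinct windows of 200 bases in the RefSeq table, 24.8% held a GC box, 28.4% a CCAAT box, 13.6% a SOX core, 9.08% a TATA box, 5.55% an AP-1 element and 4.34% an E-box. These matches describe the letters only.

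Semaphorin ligands showed no called gene. Of 20 tested (7 of class 3, 6 of class 4 and 7 of classes 5 to 7), 0 rose and 0 fell, beside 3.93% of all genes called. In so few genes a count of 0 is near that share. The median log2 fold changes of the 3 classes were -0.16, -0.06 and 0.05. The highest level belonged to Sema7a, the membrane semaphorin held by a lipid anchor, at 43.3 ± 2.77 FPKM in Nar and 46.4 ± 4.01 in EAE. Sema4d, made by oligodendrocytes and known to repel axons, followed at 23.3 ± 1.21 and 24.9 ± 1.24 FPKM. Its log2 fold change of -0.07 had an interval of -0.19 to 0.06. Among secreted class 3 ligands, Sema3b had the highest level (8.07 FPKM over all samples). Sema3c was lower in Nar by a log2 difference of 0.22 that did not pass (edgeR adjusted p = 0.147), and Sema3f, the main ligand of Nrp2, was higher with a log2 fold change of 0.39 that did not pass either (edgeR adjusted p = 0.186). Sema3f had 14.9, 8.6, 15.8, 11.4 and 13.4 CPM in Nar and 10.3, 9.54, 7.19, 10.1 and 11.7 CPM in EAE, so the groups overlap. For Sema3a, the secreted ligand of Nrp1, the log2 fold change was -0.16 (edgeR adjusted p = 0.396). Sema4g and Sema5a, the members of smallest p in the membrane classes, had log2 fold changes of 0.23 and 0.29 (edgeR adjusted p = 0.212 and 0.254).

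Neuropilins, the co-receptors of class 3 semaphorins and of vascular growth factors, were the receptor group with the lowest median (-0.48). Nrp2 fell from 57.9 ± 3.99 CPM in EAE to 40.0 ± 2.72 in Nar (SD, n = 5 each, log2 fold change -0.53, SE 0.0699, edgeR adjusted p = 0.00153). It was called in all 21 alternative analyses that were run, with log2 fold changes of -0.58 to -0.45. Its partner Nrp1 had 19.3, 25.5, 22.5, 31.0 and 22.9 CPM in Nar and 34.7, 25.9, 30.6, 39.6 and 32.4 CPM in EAE. Nar 4 lay inside the EAE range and the 4 other Nar samples below it. With all samples the log2 fold change of -0.43 missed the threshold (edgeR adjusted p = 0.0829). Leaving out Nar 4 gave -0.53 and a call (edgeR adjusted p = 0.0106), and so did leaving out EAE 2 (0.0456). The DESeq2 Wald test called it with all samples (adjusted p = 0.0287). Nrp1 was called in 3 of the 21 alternatives, and not with the mitochondrial read share as a covariate (edgeR adjusted p = 0.620). Nrp2 lies on chromosome 1 from 62703285 to 62818695 (GRCm38, ENSMUSG00000025969), an interval that spans its exons and introns.

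Plexins are the signalling receptors of semaphorins, and 1 of the 9 tested, Plxnb3, was called, beside 3.93% of all genes. It had 132, 106, 115, 115 and 140.2 CPM in Nar and 109, 98.1, 86.5, 101 and 88.3 CPM in EAE. Only the lowest Nar sample, Nar 2, lay within the EAE range. The log2 fold change was 0.33 (SE 0.0861, edgeR adjusted p = 0.0466), and the call held without Nar 2 or without Nar 4 but was lost without each of the other 8 samples (edgeR adjusted p 0.0515 to 0.147). Plxnb3 also had the highest level of the 9 plexins (18.6 ± 2.24 FPKM in Nar and 15.0 ± 1.65 in EAE), followed by Plxnb1, the receptor of Sema4d, at 15.1 and 16.1 FPKM. Plxnb1 had a log2 fold change of -0.06 with an interval of -0.21 to 0.09.

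Plxnb2, a plexin of neural progenitors, glia and macrophages, had 71.8, 64.2, 75.0, 100.2 and 72.9 CPM in Nar and 116, 94.7, 87.2, 137 and 119 CPM in EAE. Plxnd1, the receptor of Sema3e in vessels, had 17.0, 12.3, 14.0, 21.3 and 12.7 CPM in Nar and 24.4, 18.6, 20.3, 27.4 and 25.7 CPM in EAE. In both genes Nar 4 lay inside the EAE range and the 4 other Nar samples below every EAE sample. Neither passed with all samples (Plxnb2 log2 fold change -0.53, edgeR adjusted p = 0.0575, Plxnd1 -0.59, edgeR adjusted p = 0.0537). With all 10 samples both were called by the DESeq2 Wald test (adjusted p = 0.00381 and 0.00735) and by limma-voom (adjusted p = 0.0366 and 0.0388). In edgeR's test, leaving out Nar 4 gave a call for both, at -0.64 (adjusted p = 0.00321) and -0.73 (0.00274), as did leaving out EAE 3 (0.0295 and 0.0457). Plxnd1 was also called without EAE 2 (edgeR adjusted p = 0.0406). Of the 21 alternatives, 5 called Plxnb2 and 6 called Plxnd1. With the mitochondrial read share as a covariate neither was called (edgeR adjusted p = 0.619 for Plxnb2 and 0.426 for Plxnd1). The remaining plexins, among them the class A receptors that pair with neuropilins, had log2 fold changes of -0.21 (Plxna1) to 0.39 (Plxna3).

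Ephrins, the membrane ligands of Eph receptors, showed 0 called of 7 tested, near the 3.93% of all genes. Efnb3, the midline ephrin that stops corticospinal axons from crossing and that myelin also carries, had the highest level of all 69 members at 107 ± 12.98 FPKM in Nar and 94.0 ± 8.83 in EAE. It had 372, 335, 356, 277 and 379 CPM in Nar and 308, 323, 333, 262 and 259 CPM in EAE. The 4 other Nar samples were above all EAE samples and Nar 4 lay within the EAE range. Its log2 fold change of 0.21 missed the threshold (edgeR adjusted p = 0.209). Leaving out Nar 4 gave 0.28 and a call (edgeR adjusted p = 0.0431). This was the only 1 of the 21 alternatives that called Efnb3. With the mitochondrial read share as a covariate its edgeR adjusted p was 0.997. The A ephrins, held by a lipid anchor, had a median of 0.12. Efna3 had the highest level and the smallest p of them (8.15 FPKM, log2 fold change 0.18, edgeR adjusted p = 0.336), and an antisense gene covers 14.1% of its exon bases, whose reads cannot be told apart without strand.

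Eph receptors held 2 of the 5 called genes, from 14 tested (14.3%, beside 3.93% of all genes). Epha10 rose from 54.8 ± 2.62 CPM in EAE to 75.1 ± 5.13 in Nar (log2 fold change 0.45, SE 0.0622, edgeR adjusted p = 0.00198), and was called in all 21 alternatives. It had the highest level of the 9 EphA genes (10.3 ± 0.762 FPKM in Nar, 7.68 ± 0.433 in EAE). Ephb1 had 96.0, 90.6, 83.7, 80.5 and 97.6 CPM in Nar and 75.0, 74.6, 74.6, 77.0 and 65.5 CPM in EAE. The groups do not overlap, and Nar 4 was the lowest Nar sample. The log2 fold change was 0.29 (SE 0.0688, edgeR adjusted p = 0.035), and the call was lost when Nar 1, Nar 2, Nar 3, Nar 5, EAE 1, EAE 2 or EAE 5 was left out (adjusted p by edgeR 0.0535 to 0.130). Epha10 lies on chromosome 4 from 124880899 to 124917800 and Ephb1 on chromosome 9 from 101922128 to 102354693 (GRCm38).

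The other Eph receptors were not called. Epha8 had 8.92, 5.92, 9.95, 7.15 and 11.05 CPM in Nar and 3.08, 4.4, 4.16, 6.6 and 6.54 CPM in EAE. Only Nar 2 lay within the EAE range, but with 52 to 161 reads per sample the log2 fold change of 0.79 had an interval of 0.31 to 1.28 (edgeR adjusted p = 0.0638, or 0.0336 without Nar 4). With all samples the DESeq2 Wald test called Epha8 (adjusted p = 0.0143), and 3 of the 21 alternatives did in all. Epha4, a receptor of both ephrin classes found on astrocytes and neurons, was at -0.25 on the log2 scale (edgeR adjusted p = 0.0891). Ephb6, which like Epha10 lacks kinase activity, had the highest level of the EphB genes (14.9 FPKM) and a log2 fold change of 0.08 with an interval of -0.03 to 0.20. The median was -0.13 over the EphA genes and -0.05 over the EphB genes.

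Slits (3 tested) and their Robo receptors (4 tested) held 1 called gene, beside 3.93% of all genes. This was Slit3, a secreted repellent also made by mesenchymal cells. It had 11.2, 13.3, 11.7, 11.9 and 10.4 CPM in Nar and 14.6, 16.0, 16.5, 15.6 and 15.9 CPM in EAE. Each Nar sample lay below each EAE sample, and Nar 4 with its group. The log2 fold change was -0.43 (SE 0.0899, edgeR adjusted p = 0.021), and the call was lost without Nar 1, Nar 3 or Nar 5 (edgeR adjusted p 0.0553 to 0.0638). Slit1, the neuronal Slit with the highest level (5.4 FPKM), had a log2 fold change of -0.01, and Slit2 of -0.07. Slit3 lies on chromosome 11 from 35121224 to 35708507 (GRCm38).

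Among the receptors of Slits, Robo1 had 48.4, 52.8, 47.7, 35.96 and 44.4 CPM in Nar and 59.5, 54.7, 51.5, 70.6 and 62.2 CPM in EAE. Only Nar 2 lay within the EAE range, and Nar 4 was the lowest of all samples. The log2 fold change of -0.38 did not pass (edgeR adjusted p = 0.05915), with 0.0344 without Nar 2 and 0.0317 without EAE 3. With all samples Robo1 was called by the DESeq2 Wald test (adjusted p = 0.0164) and by edgeR with upper quartile scaling factors (0.0478). With the mitochondrial read share as a covariate its edgeR adjusted p was 0.541. Robo2, the Robo of highest level (3.95 FPKM), had -0.06. Robo3, which lets commissural axons cross the midline, had a log2 fold change of 0.96 from only 12 to 40 reads per sample, with an interval of 0.31 to 1.62 (edgeR adjusted p = 0.09). Robo4, the Robo of vessels, had 0.13 (edgeR adjusted p = 0.63).

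Netrins and their receptors showed 0 called of 8 tested, near the 3.93% of all genes. Ntn1, the floor plate attractant, had the highest level of the netrins (3.51 FPKM), with a log2 difference of -0.23 (edgeR adjusted p = 0.178). It had 18.3, 25.0, 18.3, 20.6 and 19.1 CPM in Nar and 23.6, 22.8, 23.6, 26.6 and 22.4 CPM in EAE, where Nar 2 lay inside the EAE range and the other Nar samples below it. Dcc, the attractive receptor, had a log2 fold change of 0.08 with an interval of -0.21 to 0.37. The Unc5 genes ranged from -0.13 (Unc5a, edgeR adjusted p = 0.356) to 0.06 (Unc5b, the highest of them at 10.7 FPKM). All 5 receptor intervals and all 3 netrin intervals lay within ±0.5.

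**Figure D3:**
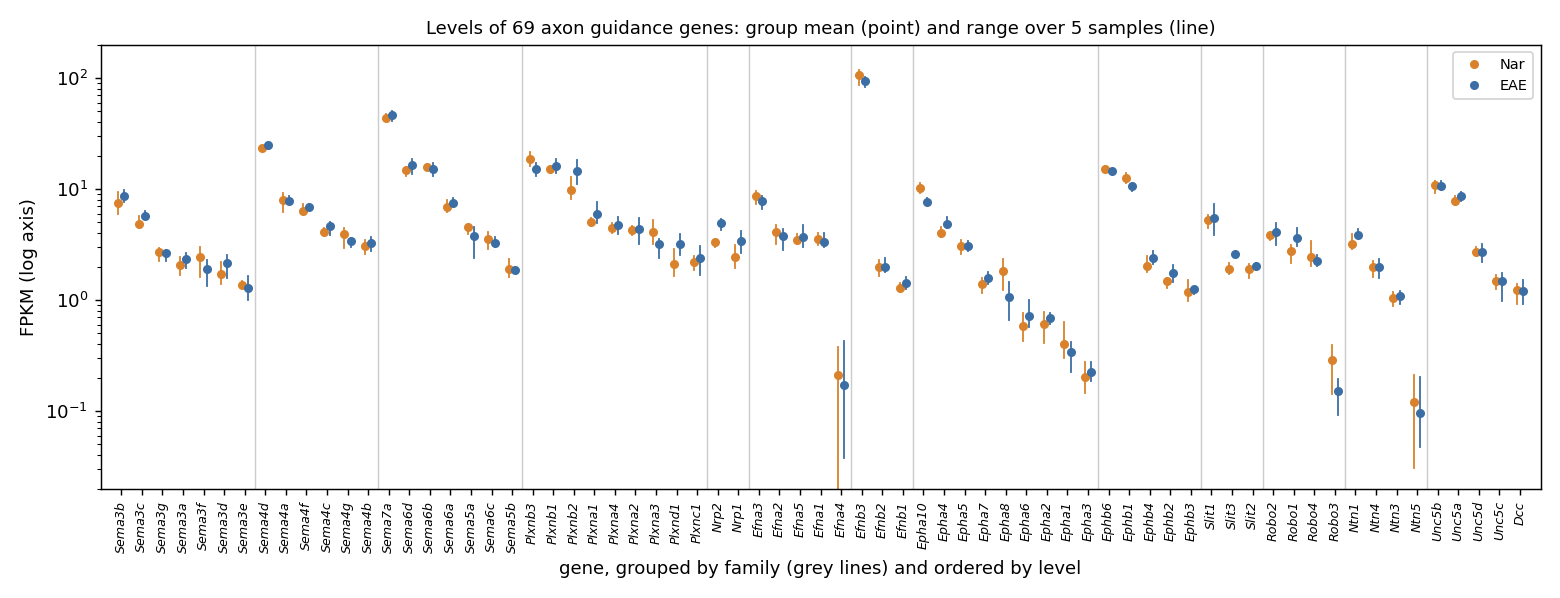
FPKM (y axis, log scale) of all 69 genes, grouped by family and ordered by level, with the group mean as a point and the range over 5 samples as a line. Levels run from 0.109 FPKM (Ntn5) to 100.5 FPKM (Efnb3) over all samples, and in most genes the ranges of both groups overlap; 1 Nar sample is at 0 for Efna4, where the line ends at the lower edge of the axis.

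Without Nar 4, 11 of 67 members were called (16.4%), 6 higher and 5 lower, beside 10.1% of all 14722 genes then tested (2.61% higher, 7.49% lower). The 5 genes called with all samples were among the 11. The others were Plxnb2, Plxnd1 and Nrp1, which fell, and Plxna3, Efnb3 and Epha8, which rose. In Plxnb2, Plxnd1, Nrp1 and Efnb3 Nar 4 lay in the EAE range and outside that of the other Nar samples. Over the 67 tested members this was so in 13, while in 17 Nar 4 lay in the range of the other Nar samples only, in 24 in both ranges and in 13 in neither. Nar 4 was singled out by its values, so these calls are given as a description. Without Nar 2, 10 members were called, beside 4.68% of all genes. They were Nrp2, Epha10, Slit3 and Plxnb3 from the calls with all samples, and Robo1, Epha4 (edgeR adjusted p = 0.0340), Robo3 (0.0361), Ntn1 (0.0365), Sema3c (0.0389) and Epha8 (0.0429).

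**Figure D4:**
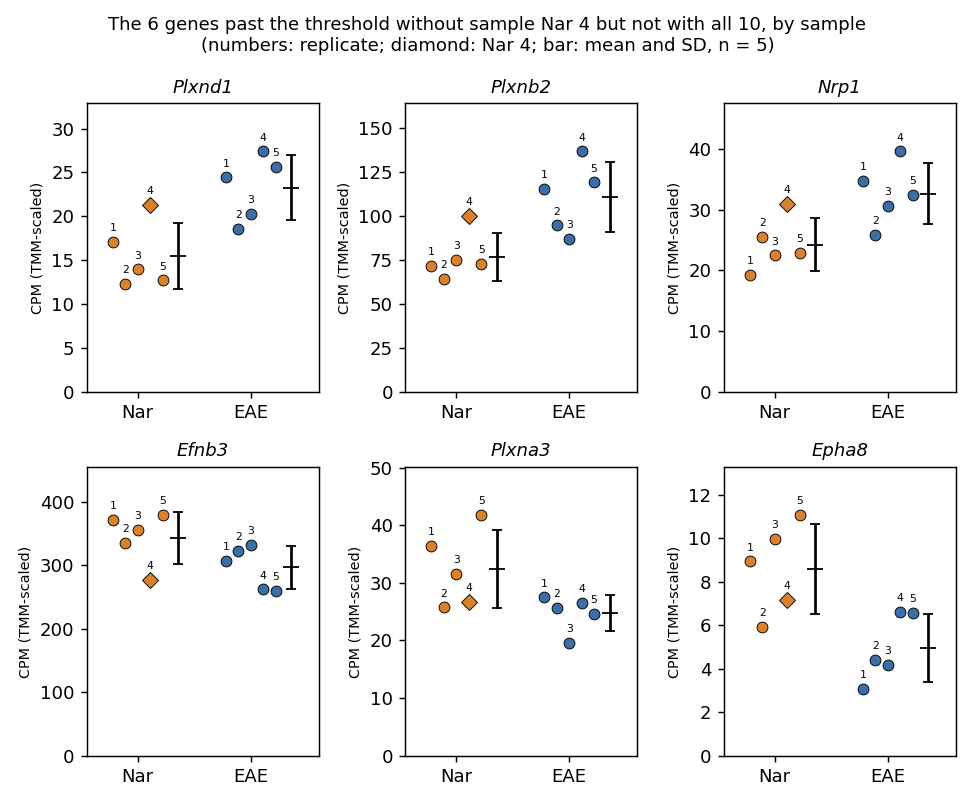
CPM (y axis, from 0) in each sample of the 6 genes called without Nar 4 but not with all 10 samples, with replicate numbers, mean and SD (n = 5 per group) and Nar 4 as a diamond. Nar 4 lies among the EAE samples in Plxnd1, Plxnb2, Nrp1 and Efnb3.

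Cell markers moved with some of these genes, and in bulk tissue fewer cells of a type and less RNA per cell cannot be told apart. Of 10 oligodendrocyte markers 4 rose and 0 fell, with a summed level of 5361 to 6209 FPKM in Nar and 4151 to 5341 in EAE, beside the rise of Plxnb3. Sema4d, also made by oligodendrocytes, did not rise with them (log2 fold change -0.07, not called). Of 8 fibroblast and meningeal markers 5 fell and 0 rose, beside the fall of Nrp2 and Slit3. The sum of the 8 was 195 to 296 FPKM in Nar and 258 to 451 in EAE, and Nar 4 was lowest at 195. Most of this sum was Ptgds (mean 283 FPKM over all samples), which was not called (edgeR adjusted p = 0.252). The 5 markers that fell had means of only 1.31 (Lum) to 3.87 FPKM (Col1a2), so the sum says little about them. Microglia markers had 1 of 8 falling, at 102 to 116 FPKM in the other Nar samples, 238 in Nar 4 and 208 to 270.2 in EAE. Infiltrating macrophage markers had 2 of 8 falling, and Nar 4 (94.4 FPKM) lay below EAE (151 to 404). Beside these stand Plxnb2, Plxnd1 and Nrp1, which were not called with all samples. They were called without Nar 4, a sample singled out by the macrophage markers. That choice favours genes with Nar 4 among EAE, so their likeness to marker sums is a description only. Of 8 astrocyte markers 3 fell (Aqp4, Slc1a2 and Sox9) and 0 rose. The sum of the 8 was 930 to 1005 FPKM in the other Nar samples, 1571 in Nar 4 and 1372 to 1599 in EAE, beside Plxnb2, Plxnd1 and Nrp1 too. Most of this sum was Gfap (mean 868 FPKM over all samples), which was not called (edgeR adjusted p = 0.184). The markers that fell had means of 141 (Aqp4), 144 (Slc1a2) and 13.2 FPKM (Sox9). Endothelial markers had 0 of 9 called, at 125 to 167 FPKM in Nar and 113 to 126 in EAE, and neuron markers 0 of 10, at 1860 to 2212 and 1807 to 2383 FPKM. Motor neuron markers had 0 of 5 called, with the log2 fold change below 0 in all 5 (median -0.51). No marker of these lists was at 0 in all samples, and the part of these cells in the results was not tested. Of the 8 spinal cord Hox genes 1 rose, Hoxb8 (log2 fold change 0.34, edgeR adjusted p = 0.0341), and 0 fell. The sum of the 8 was 132 to 202 FPKM in Nar, lowest in Nar 4, and 144 to 179 in EAE. Hoxa9, not called, had 9.78 to 50.4 CPM in Nar and 12.9 to 33.2 CPM in EAE. Whether the samples differ in cord level, and its part in the results, was not tested.

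The genes that act beside these receptors or carry their signals onward were followed as lists. The 6 lists of co-receptors, effectors and myelin-associated inhibitors held 105 distinct tested genes, of which 3 rose and 3 fell (5.71%, beside 3.93% of all genes), with a median log2 fold change of -0.03. Among co-receptors and other cues (23 tested), Cntn2, an adhesion molecule of axons and of the myelin next to the node, rose (451 ± 40.1 CPM in Nar, 359 ± 10.6 in EAE, log2 fold change 0.33, edgeR adjusted p = 0.0137). Among semaphorin and plexin effectors (21 tested), Dpysl2, the collapsin response mediator CRMP2, rose by 0.36 on the log2 scale (edgeR adjusted p = 0.0279). Arhgef11, an effector bound by B plexins, fell by 0.47 (edgeR adjusted p = 0.0324). Among Eph and ephrin effectors (19 tested), the kinase gene Fyn fell by 0.31 (edgeR adjusted p = 0.0244) and Chn1, which codes for the Rac regulator chimaerin downstream of Epha4, rose by 0.29 (edgeR adjusted p = 0.0324).

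Effectors of Slit, Robo and netrin had 0 of 21 called. In the list of myelin-associated growth inhibitors and their receptors, 1 of 9 changed: Tnfrsf19, a co-receptor of the Nogo receptor, fell by 0.37 (50.1 ± 1.11 CPM in Nar, 64.6 ± 6.5 in EAE, edgeR adjusted p = 0.0139). The medians of the 6 lists lay between -0.08 and 0.04, beside 0.02 for all tested genes.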

How the data were processed

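Spinal cord mRNA was selected with poly-T beads and sequenced on an Illumina NovaSeq by a protocol that names no strand marking, per the labels' protocols. The submitters' processing notes name cutadapt and HISAT2 2.0.5, and no source used here names the counter or annotation. Raw read counts and FPKM values of 21936 genes in 10 samples stand in the table that the authors deposited, per the file headers. All 69 members have the same GRCm38 interval in GENCODE M21. Deposited counts were filtered with filterByExpr (14595 genes kept), scaled with TMM factors and tested with edgeR 4.0.16 (robust quasi-likelihood fit, Nar minus EAE) in R 4.3.3, and p-values were adjusted by Benjamini-Hochberg across every gene tested. Standard errors are the log2 fold change over the square root of F, and 95% intervals use the degrees of freedom of the fit. The members and lists were chosen with earlier results of these data known, so no p is given for the members as a set. The separate result of 1 of the 6 pathway lists is not reported here. Each called member, and in each family the member of smallest p and of highest FPKM, is named; other genes were named after their values were seen. Alternatives used DESeq2 1.42.0 and limma 3.58.1. The fit was also run on simulated counts in which no sample shifts as a whole, and no statement here rests on that run. Same-group samples differed by more than counting noise (chi-square over degrees of freedom 4.16 to 39.1). Sequences are RefSeq's, and 59 of 69 members had a promoter window there.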

Additional observations from a re-analysis of the deposited data

Results flagged for a closer look

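In groups of 5, a sample was singled out when its gap to the nearest other sample took up most of the group's range. This was so in 10 of the 134 groups examined (67 genes in 2 groups), and chance flags about 5% of groups. In genes called above, EAE 1 was the highest EAE sample in Epha10, at 59.4 CPM against 52.9 to 54.1 in the other 4, and EAE 5 the lowest in Ephb1, at 65.5 CPM against 74.6 to 77.0. Nar 4 was the highest Nar sample in Epha1 (2.5 CPM against 1.2 to 1.54) and the lowest in Dcc (12.1 against 17.0 to 18.8). EAE 4 was the lowest EAE sample in Sema5b (11.9 CPM against 13.4 to 13.8) and the highest in Ntn1 (26.6 against 22.4 to 23.6). EAE 5 was the highest in Sema4a (46.0 CPM against 39.8 to 41.4) and EAE 3 in Efna1 (7.58 against 5.5 to 5.92). Nar 2 was the highest Nar sample in Efna5 (16.3 CPM against 13.02 to 13.9), and Nar 1 the lowest in Ephb2 (16.2 against 19.0 to 19.9).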

How the results depend on the processing

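Of the 5 called genes, Nrp2 and Epha10 were called in all 21 alternative analyses, Slit3 in 17, Ephb1 in 9 and Plxnb3 in 7, and all 5 kept their sign in every one. With all 10 samples, the count of members called (5) was 12 with the DESeq2 Wald test, 12 at an adjusted p of 0.1, 3 with limma-trend on the FPKM values under each of 3 settings (Nrp2, Slit3 and Epha10) and 2 with the mitochondrial read share as a covariate (Nrp2 and Epha10), and it ranged from 2 to 11 with single samples left out. Of all genes called (574, 230 higher and 344 lower), the number was 1308 with DESeq2, 881 with limma-voom, 1266 at an adjusted p of 0.1 and 197 with the mitochondrial covariate, and 161 to 1486 with single samples left out. The FPKM fits moved the split of higher and lower genes to 189 and 499, 193 and 517, and 141 and 425. With the mitochondrial covariate the family medians moved to 0.042 (class 3 semaphorins), 0.15 (plexins), -0.31 (neuropilins), 0.16 (EphA), 0.17 (netrins) and 0.19 (netrin receptors), and the family median, ephrin-A, to -0.015. With limma-trend on unfiltered FPKM the family median, EphA receptors, was -0.028. The cause was not tested. With single samples left out, the lowest and highest medians were -0.044 and 0.056 for semaphorins of classes 5 to 7 and -0.17 and 0.0092 for EphB receptors. The other medians moved by less than the spread between replicates. With the replicate number as a block, 5 members were called, 3 of them the same (Nrp2, Slit3 and Epha10). Plxnb2 (edgeR adjusted p = 0.0106) and Plxnd1 (0.0170) were gained, while Ephb1 (edgeR adjusted p = 0.0716) and Plxnb3 (0.0542) were not. The numbers give no sign of pairing: same-numbered samples had correlations of deviations of -0.23 to 0.16, and 0 of 5 Nar samples correlated best with their own number. Under the 2 other scalings, the median of all genes moved by less than 0.1. Robo3 had 12 to 40 reads per sample and Epha1 16 to 37, and the part of depth in their wide intervals was not tested.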

Other observations

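Some members lie side by side in the genome, and such neighbours did not share a direction in every pair. Robo3 and Robo4, 554 bases apart on chromosome 9 on opposite strands, had log2 fold changes of 0.96 and 0.13. Epha8 and Ephb2, 93.4 kb apart on chromosome 4, had 0.79 and -0.21, and Sema3b and Sema3f, 72.3 kb apart on chromosome 9, had -0.17 and 0.39. Sema3a and Sema3e on chromosome 5 had -0.16 and 0.13, and Efna1 and Efna3 on chromosome 3 had 0.11 and 0.18. None of these genes passed edgeR's threshold with all samples, and the differences within pairs were not tested.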
